A study of Mus musculus with 3 samples.

Results

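Open chromatin is usually read from ATAC-seq as regions in which transposase cuts are dense. A set of 3506 such regions is described here, of 182187 listed at 0 h on chromosomes 1 to 19 and X (1.92%, exact 95% interval 1.86 to 1.99). Each was 1 region at 0 h, was overlapped by exactly 1 region at 6 h, and was overlapped by 2 or more separate regions at 72 h, with at least 1 bp shared. The regions at 72 h are called pieces, and the unlisted bases between neighbouring pieces are called gaps. The members were chosen by these overlaps between the 3 peak lists, so the splitting itself is a description and no test was made of it.

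The cells were of the mouse Ecomg myeloid progenitor line, a cell line grown with GM-CSF and estradiol, and all carried the genotype FKBP12F36V_NIPBL. FKBP12F36V is a degron: the small molecule dTAG brings a protein that carries it to the cell's breakdown machinery. NIPBL is the factor that loads cohesin, the ring that extrudes DNA loops. The 3 libraries were +estradiol 0 h -dTAG, +estradiol 6 h +dTAG and +estradiol 72 h +dTAG, each of 50000 cells and 1 library per group. No difference between times therefore has a replicate check. The effects of dTAG, of days in culture and of the single library cannot be told apart, as both later libraries received dTAG. At 0 h, 17 of 21 progenitor genes, 21 of 25 mature neutrophil genes and 13 of 22 genes of other lineages had a listed region within 1 kb of an end, which describes open chromatin and not expression. Over all 21631 protein-coding genes, 14041 had such a region. Whether the line is 1 clone, and how much NIPBL protein was left, is not given in the sources used here.

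Nucleosomes, the spools of histone proteins that package DNA, hinder the transposase, while promoters and enhancers in use are kept largely free of them. At an active promoter a nucleosome-depleted stretch lies just before the start site and is bordered by positioned nucleosomes on both sides, the first of them inside the gene. A long listed region can span several such open stretches, and a peak caller lists it as 1 when the signal between them stays above its cutoff or falls below it only briefly.

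The sequences of 4 gaps are shown because each lies before a start site, where the RefSeq promoter table (GRCm38.p6, the assembly of mm10) holds the bases. Each is written on the strand of the gene, with the bases of the gap in capitals and up to 30 bases of the neighbouring pieces in lower case. At Malat1 only 182 of the 234 gap bases are held there and shown, and at Ube2s 81 of 82. All 4 stretches were listed as open at 0 h and 6 h, and at 72 h their capitals were not listed.
Malat1, chr19:5802711-5802922, minus strand: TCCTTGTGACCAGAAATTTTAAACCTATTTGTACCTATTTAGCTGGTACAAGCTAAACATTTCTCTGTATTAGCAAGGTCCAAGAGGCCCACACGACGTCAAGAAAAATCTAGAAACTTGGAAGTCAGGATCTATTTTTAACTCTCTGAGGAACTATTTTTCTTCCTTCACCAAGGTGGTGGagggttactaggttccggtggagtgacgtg
Ube2s, chr7:4812480-4812590, minus strand: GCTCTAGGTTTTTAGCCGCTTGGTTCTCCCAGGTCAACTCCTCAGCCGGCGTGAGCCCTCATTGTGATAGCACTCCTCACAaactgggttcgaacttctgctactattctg
Mertk, chr2:128698692-128698843, plus strand: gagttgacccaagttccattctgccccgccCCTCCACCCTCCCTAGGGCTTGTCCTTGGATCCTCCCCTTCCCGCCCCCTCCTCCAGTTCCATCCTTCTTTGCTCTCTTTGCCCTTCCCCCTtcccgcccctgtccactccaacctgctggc
Myb, chr10:21161121-21161234, minus strand: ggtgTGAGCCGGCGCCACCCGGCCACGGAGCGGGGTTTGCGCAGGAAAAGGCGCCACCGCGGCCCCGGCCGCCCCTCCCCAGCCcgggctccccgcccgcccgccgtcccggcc
They share no common base composition. G and C made up 39.0% of the gap bases shown at Malat1, 55.6% at Ube2s, 62.0% at Mertk and 80.0% at Myb.

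Splitting at 72 h was more frequent than splitting at 6 h. With the roles of the later lists exchanged, 1687 regions of the 0 h list (0.926%, 0.882 to 0.971) were in pieces at 6 h and 1 region at 72 h. A further 1799 were in pieces at both times, and 95210 were listed once at both. In the opposite direction, 1771 regions at 72 h (1.22% of that list) covered 2 or more regions of 0 h and exactly 1 of 6 h. The members were thus 2.08 times as many as the regions split at 6 h and 1.98 times as many as those joined at 72 h. With the 1799 counted at both times, 5305 regions were in pieces at 72 h and 3486 at 6 h, a ratio of 1.52. These counts leave out regions in pieces at 1 later time and unlisted at the other. With those included, 5310 regions (2.91%) were in pieces at 72 h and 3672 (2.02%) at 6 h. Below, a region split at 6 h is one that was whole at 72 h, unless those in pieces at both times are said to be included. Depth moved with the count: the spacing of the folds corresponds to 0.323 background fragments for the 0 h library, 0.327 for 6 h and 0.281 for 72 h. Its part in the count was not tested. The shortest gap in a whole list was 56 bp (0 h), 57 bp (6 h) and 59 bp (72 h).

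The members were long regions. Their median length was 736.5 bp at 0 h (5th to 95th percentile 297 to 1594), against 130 bp over all 0 h regions, 176 bp in regions listed once at both later times and 474 bp in those split at 6 h. At 6 h the undivided region was of much the same size, with a median length of 777 bp and a ratio to the 0 h length with quartiles of 0.943 and 1.09. The 6 h region covered a median of 97.7% of the 0 h bases. At 72 h the pieces covered a median of 77.4% (quartiles 67.0 and 84.6). Regions listed once at both later times were covered to a median of 90.5% at 72 h. The rule itself gives each member at least 1 gap at 72 h, which lowers its covered share. From 500 bp to under 1000 bp the medians were 78.8% in members and 93.5% in regions listed once.

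Longer regions were more often in pieces, at 6 h as well as at 72 h, and from 500 bp on the share was higher at 72 h. The shares given first include regions in pieces at both times and leave out those unlisted at the other time. Of 0 h regions of 250 bp to under 500 bp, 5.16% (4.87 to 5.47) were in pieces at 72 h and 5.12% (4.83 to 5.42) at 6 h. From 500 bp to under 1000 bp the shares were 32.6% (31.6 to 33.7) and 19.5% (18.6 to 20.4), and over all regions of 1000 bp or more 67.7% (65.7 to 69.6) and 31.6% (29.7 to 33.5). At 2000 bp and over they were 87.8% (80.9 to 92.9) and 40.5% (32.0 to 49.4). The regions whole at the other time divide as follows. Among 0 h regions of 250 bp to under 500 bp, 3.72% (3.48 to 3.98) were members and 3.68% (3.44 to 3.94) were split at 6 h. From 500 bp to under 1000 bp the shares were 21.5% (20.5 to 22.4) and 8.30% (7.69 to 8.93), and from 1000 bp to under 1500 bp they were 39.8% (37.5 to 42.1) and 5.67% (4.63 to 6.85). Of the 131 regions of 2000 bp and over, 64 were members (48.9%, 40.0 to 57.7), 2 were split at 6 h and whole at 72 h, and 51 were in pieces at both times. Over all regions of 1000 bp or more the members made up 41.1%, those split at 6 h and whole at 72 h 4.99%, and a further 607 of the 2284 were in pieces at both times. The lists as a whole held fewer long regions at 72 h: those of 1 kb or more numbered 2284 at 0 h, 2260 at 6 h and 1065 at 72 h.

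**Figure D1:**
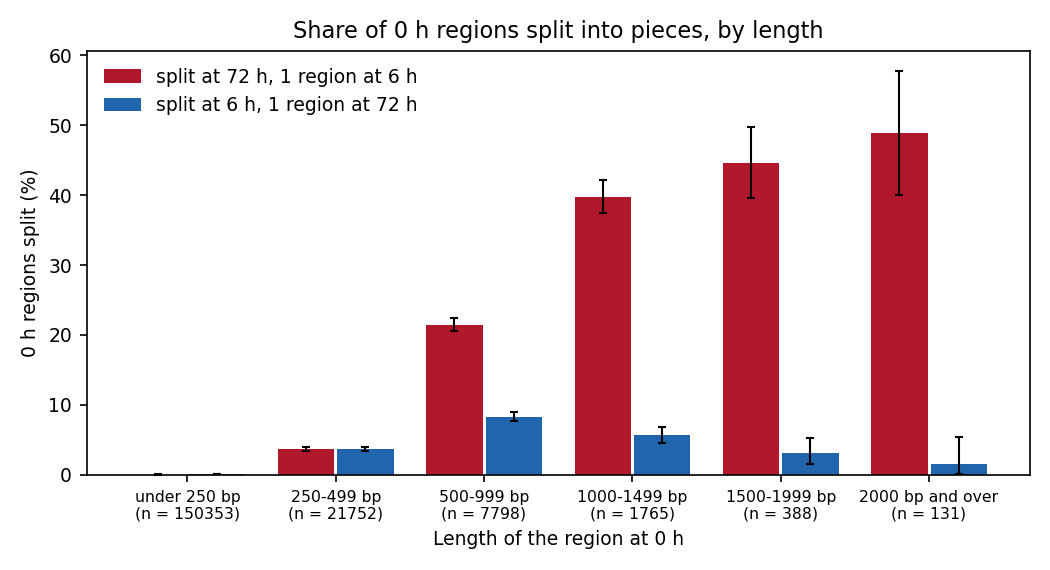
Percent of 0 h regions that were split (y axis) by their length at 0 h (x axis, with the number of regions in each class); red bars are regions in pieces at 72 h and whole at 6 h, blue bars those in pieces at 6 h and whole at 72 h, and error bars are exact 95% intervals that cover counting error only. The bars are level from 250 bp to under 500 bp and lie apart from 500 bp on, reaching 48.9% against 1.53% at 2000 bp and over. Regions in pieces at both times are in neither bar, and with them the shares at 2000 bp and over are 87.8% and 40.5%.

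Most members fell into 2 pieces. There were 3026 with 2 pieces (86.3%), 398 with 3, 71 with 4, 8 with 5 and 3 with 6, and median 0 h length was 669 bp with 2 pieces, 1096 bp with 3 and 1504 bp with 4. One piece usually dominated. The highest piece had a median fold of 67.5 (the fold is the authors' ratio of the summit to the caller's background) and the next highest 9.37. The second piece reached a fold of 20 or more in 905 members (25.8%) and of 50 or more in 281 (8.01%). In 859 members the lowest piece had a fold under 5, near the list's minimum of 3.12. The highest piece was also the longest in 2861 members.

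The main summit mostly stayed where it was. The 0 h summit fell in a piece in 3418 members (97.5%), in the highest piece in 3043 (86.8%) and in a gap in 77 (2.2%). The median distance between the 0 h summit and the highest 72 h summit was 20 bp, and between the 0 h and 6 h summits 15 bp. Within regions of 500 bp to under 1000 bp the 72 h distance was 18 bp in members and 17 bp in regions listed once at both later times. The members' median summit fold was 60.5 at 0 h and 71.6 at 6 h, beside 67.5 for the highest piece at 72 h. The medians of the whole lists were 6.80, 7.54 and 9.37, and folds of separate lists are given side by side without a comparison. The gaps thus mostly lay beside the summit. The middle of the median gap lay at 0.335 of the region's length from the nearer edge, where 0.5 is the centre.

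Gaps were mostly short. The longest gap of a member had a median of 94 bp (quartiles 74 and 126), against 79 bp in the regions split at 6 h (66 and 99). It was 100 bp or more in 1568 members. It reached the length of DNA wrapped in a nucleosome core in 627 (17.9%, 16.6 to 19.2), against 87 of 1687 (5.16%, 4.15 to 6.32) in the regions split at 6 h. Gaps of 300 bp or more divided 92 members and 3 of the regions split at 6 h. Members were longer than the regions split at 6 h, and the smallest gap the lists can show differs by 2 bp, so the sets are not matched. The part of depth in gap length was not tested.

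**Figure D2:**
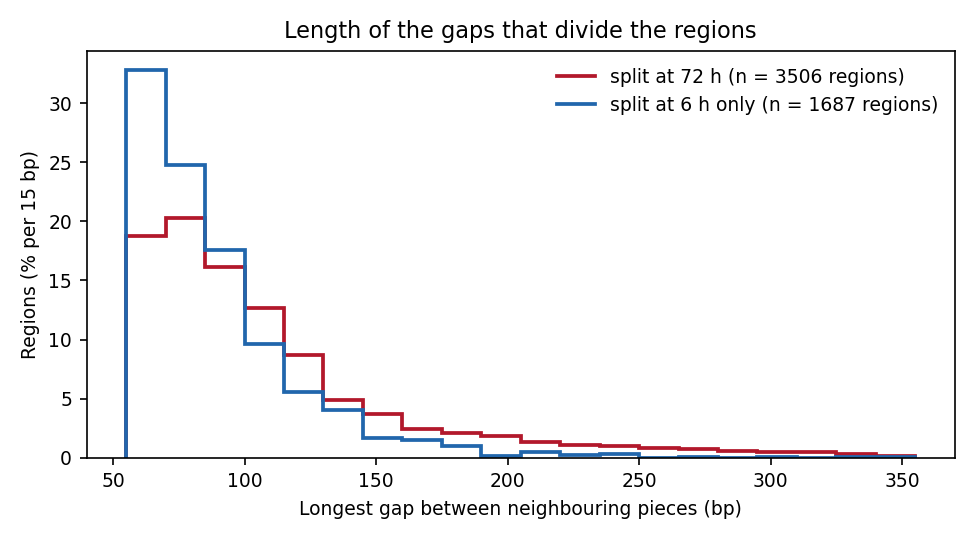
Share of regions in percent per 15 bp class (y axis) by the longest gap between neighbouring pieces in bp (x axis, shown to 355 bp); red is the 3506 members at 72 h and blue the 1687 regions split at 6 h only. The blue line is higher below 100 bp, and the red line has the longer tail, with 92 members at 300 bp or more against 3 regions.

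The 1 bp rule was close for few members. The piece with the smallest overlap shared under 25 bp with the 0 h region in 169 members (4.82%). Just inside the rule were regions at the ends of Rnf34 (chr5:122849831-122850829, 0 h fold 124) and Slc2a8 (chr2:32981778-32982333, 0 h fold 114), where the outer piece shared 1 bp and had folds of 3.90 and 4.68. Just outside it were regions at Xrra1 (chr7:99858624-99859262, 0 h fold 138) and Atad2 (chr15:58134245-58135428, 0 h fold 111), where a second 72 h region began at the border with 0 bp between them and had folds of 8.59 and 46.1. In 1267 members (36.1%) all pieces lay within the 0 h borders.

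Members lay mainly at genes. Of the 3506, 2252 came within 1 kb of either end of a coding gene (64.2%, 62.6 to 65.8), against 15.9% of all 0 h regions, 17.3% of regions listed once at both later times and 44.2% of those split at 6 h. A further 756 (21.6%) lay inside a gene span and 498 (14.2%) between genes. Among regions of like length the shares lay closer together: from 1000 bp to under 1500 bp, 80.9% of members and 80.7% of regions listed once at both later times were at a gene end. From 500 bp to under 1000 bp the shares were 69.1% and 59.3%. Read the other way, 24.3% (23.1 to 25.6) of gene-end regions of 500 bp to under 1000 bp were members, against 18.1% (16.4 to 20) inside genes and 15.3% (13.4 to 17.4) between genes. From 1000 bp to under 1500 bp the 3 shares were 40.3%, 38.6% and 35.3%, with overlapping intervals.

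Members at gene ends were the higher ones, and their second piece stood higher too. Median 0 h fold was 77.1 at gene ends, 36.3 inside genes and 31.4 between genes, and median 0 h length was 836 bp at gene ends and 575 bp inside genes. The second piece had a median fold of 11.7, 7.03 and 6.25. The longest gap hardly differed, with medians of 95, 93 and 92 bp. Members whose pieces covered under 50% of the 0 h bases numbered 199 (5.68%). They made up 3.91% (3.15 to 4.79) of those at gene ends, 7.28% (5.53 to 9.36) inside genes and 11.2% (8.61 to 14.4) between genes. Length was not held fixed here. The median covered share was 69.8% in members of 250 bp to under 500 bp and 78.8% from 500 bp to under 1000 bp. Of all members of 500 bp or more, 3.56% were covered under 50%.

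Around start sites the gaps had a preferred place. In 1381 members exactly 1 start site of the promoter table fell within the 0 h region, with 1674 gaps. Of these gaps 1252 (74.8%, 72.6 to 76.9) lay wholly downstream of the start, inside the gene, 389 (23.2%) upstream and 33 (1.97%) over it. The single fullest 100 bp class was that from 100 to 200 bp downstream, with 428 gaps (25.6%, 23.5 to 27.7). A lower mode lay 200 to 300 bp upstream, with 112 gaps, and 27 gaps lay in the 100 bp before the start. Of the 0 h bases of these regions, 59.0% were downstream of the start.

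The start itself stayed within a piece. In 1338 of the 1381 members (96.9%, 95.8 to 97.7) a piece covered the start site, and these pieces had a median length of 454.5 bp. In 1193 of the 1338 it was the highest piece. In 1083 of the 1338 a separate piece followed downstream, with a median fold of 11.7 and a median length of 214 bp. The highest 72 h summit lay a median of 47 bp before the start. The typical member at a promoter was therefore a high piece over the start, a gap beyond it and a low piece inside the gene.

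The place of the gaps was not particular to 72 h. In regions split at 6 h, 278 of 364 gaps (76.4%, 71.7 to 80.6) lay downstream and 30.8% (26.1 to 35.8) in the class from 100 to 200 bp. In regions that were in pieces at 0 h and joined at 72 h the shares were 67.5% (62.0 to 72.8) of 302 gaps and 28.1% (23.1 to 33.6), and for those joined at 6 h 73.2% (68.5 to 77.6) of 385 gaps and 31.4% (26.8 to 36.3). All 4 sets thus had the same fullest class.

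**Figure D3:**
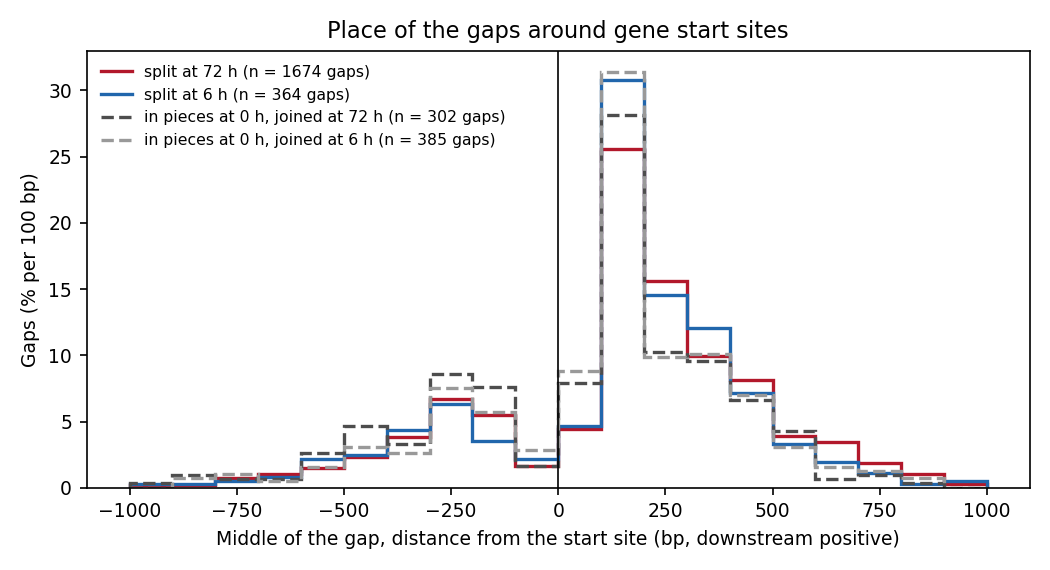
Middle of each gap relative to the single start site in its region (x axis, bp, downstream positive) as percent of gaps per 100 bp (y axis); lines are gaps at 72 h in members (red, 1674 gaps), at 6 h in regions split then only (blue, 364) and at 0 h in regions joined at 72 h (dark dashes, 302) or at 6 h (light dashes, 385). All 4 lines peak from 100 to 200 bp downstream, at 25.6% in members.

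Promoters of the members and of other long regions had much the same base composition. The table gives 300 bp windows, 250 bases before and 50 after the start. Over the 2044 windows whose start lay in a member of 500 bp or more, median GC content was 64.0% and the median number of CpG dinucleotides 25, against 63.7% and 24 over the 3203 windows in regions of that length listed once at both later times. Windows with no 0 h region over the start had 50% and 4. Each motif was searched on both strands without regard to overlap with another. The GC box GGGCGG of Sp and Klf factors was present in 75.6% of those member windows, in 75.1% of the windows listed once and in 46.6% of all 21020 windows. The CCAAT box was present in 40.8%, 40.0% and 38.5%, the ETS motif CCGGAAG in 22.4%, 23.6% and 11.7%, and the TATA box TATAAA in 5.19%, 4.50% and 12.7%. A match describes these letters only and is no binding site. Within a window, gap bases were somewhat poorer in G and C than piece bases: in the 376 windows with 50 or more of each, the medians were 62.1% and 65.7%, and the gap was the lower in 246. The place of the gap within the window was not held fixed.

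The members in the most pieces included regions at long noncoding RNA genes and at immediate early and signalling genes. Malat1 is a nuclear long noncoding RNA of very high level in most cells. Its region (chr19:5799992-5803863, over the start of the gene and its first part) was 3872 bp long at 0 h, of fold 92.2, and 4254 bp with 104 at 6 h. At 72 h it was in 6 pieces, with folds of 6.25, 6.25, 3.90, 21.1, 51.5 and 112 in order of coordinate, a longest gap of 569 bp and 45.9% of the 0 h bases covered. The gene lies on the minus strand, so the low pieces are those inside the gene, and the highest is before the start. Neat1, the neighbouring RNA that builds paraspeckles, had a region of 4202 bp at chr19:5842011-5846212 with folds of 137 at 0 h and 162 at 6 h. It was also in 6 pieces, but 82.1% of the 0 h bases stayed covered, and the highest piece had a fold of 128.

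The third member with 6 pieces lay between genes at chr15:85668887-85672089, 62821 bp from the nearest end of a protein-coding gene, that of Ppara. It had folds of 87.7 at 0 h and 100.2 at 6 h, and the highest of its pieces had 25. Those with 5 pieces included Ier2, an immediate early gene, where a region of 3362 bp (fold 129 at 0 h, 151 at 6 h) was left as pieces with folds of 39.0, 3.12, 18.7, 175 and 126. Socs1, the inhibitor of cytokine receptor signalling, had a region of 2017 bp in 5 pieces, 1 of fold 165 and the others of 8.59 or 9.37. Its gaps lay on both sides of the start, which the high piece held. Others with 5 pieces were at Adamts1, a secreted protease, Ints6, a subunit of Integrator, Ube2s, a ubiquitin-conjugating enzyme of mitosis, and Tmpo, a protein of the inner nuclear membrane. The covered shares of these 4 lay between 60% at Adamts1 and 65.2% at Ints6.

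**Figure D4:**
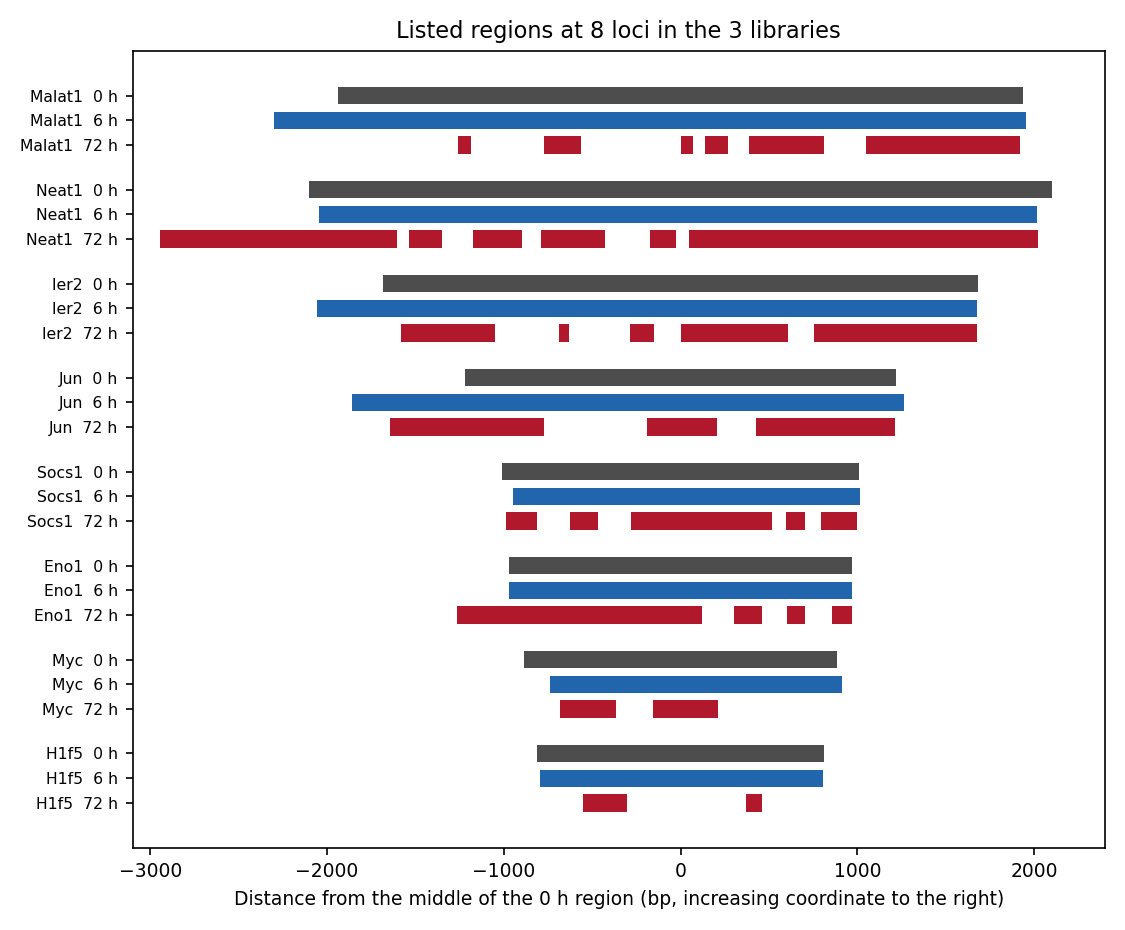
Listed regions of the 3 libraries at 8 loci, drawn to scale as distance in bp from the middle of the 0 h region (x axis); grey bars are 0 h, blue 6 h and red 72 h, and each bar is 1 listed region. At every locus shown the 0 h and 6 h bars are undivided, and at 72 h there are from 2 pieces (Myc, H1f5) to 6 (Malat1, Neat1).

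The 10 members with the longest gaps included regions at small RNA genes, histone genes and Jun. The longest, 893 bp, divided a region of 2272 bp at Zc3h10 into pieces with folds of 178 and 139. That region also holds Rpl41, a ribosomal protein gene, and the gap lay within its span. A gap of 703 bp lay beside Tmem107 in a region of 1675 bp that also holds Snord118, the U8 small nucleolar RNA. That region had folds of 108 at 0 h and 121 at 6 h, its higher piece at 72 h had 24.2, and 24.4% of the 0 h bases were covered. The piece of fold 24.2 covered the Snord118 gene, and the gap lay beyond it. A gap of 580 bp lay in a region of 2334 bp at chr11:83271393-83273726, near Slfn14, that holds a predicted small nuclear RNA gene. It had folds of 114, 127 and, for the higher piece, 34.3. At Jun, the AP-1 subunit, a region of 2440 bp (fold 111 at 0 h, 152 at 6 h) was in 3 pieces with folds of 32.0, 18 and 169, and its 2 gaps of 586 and 218 bp both lay downstream of the start. Gaps of 557 and 552 bp lay at Ikbip, whose region also holds the start of Apaf1, and at Bhlhe40, a basic helix-loop-helix repressor.

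Among the 10 members of highest 0 h fold at gene ends, those at Sap130 and Klf13 had a lower piece that was itself high, of fold 285 and 144, and in the others it was between 5.46 and 28.9. Anp32e, a chaperone of the histone variant H2A.Z, had the highest, with folds of 839 at 0 h and 895 at 6 h in a narrow region of 610 bp, and 262 in its higher piece. Next were Sap130, Clec11a, Zfp687, Inpp5a, Pknox1, Rnd1, Klf13, Map3k12 and Rnf44, with 0 h folds from 209 to 263. Their higher pieces had folds from 214 to 358. The region named by Map3k12 lay 696 bp from an end of that gene, inside the span of Tarbp2, and held a start site of Tarbp2. Klf13, a Krüppel-like factor, had a region of 2894 bp, of which 94.0% stayed covered, with pieces of fold 275 and 144 on either side of a gap of 105 bp.

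At cohesin and loop anchor genes the members kept most of their bases, as did all members of like length. The 6 at gene ends had a median 0 h length of 1270 bp and a median covered share of 86.6%. Over all members of 1000 bp to under 1500 bp it was 82.9%. Of 13 genes of cohesin, its loaders and loop anchors with a 0 h region at an end, 6 had a member there (46.2%), namely Smc3, Stag2, Pds5a, Pds5b, Ctcf and Zfp143. The share over all 14041 protein-coding genes with such a region was 18.9%. These genes had long end regions, with a median of 1039 bp against 521 bp over all genes, and of those with an end region of 500 bp or more 6 of 12 had a member, against 33.1% of all genes. Smc3, the cohesin ring subunit, had 1 region of fold 119 at 0 h and 139 at 6 h, and at 72 h a piece of fold 187 and, after a gap from 46 to 188 bp downstream of the start, a piece of fold 7.81. Ctcf, the factor that stops loop extrusion, had folds of 85.4 and 94.2, then 76.5 and 5.46. Pds5b, a cohesin regulator, had 138 and 148, then 157 and 25.8 with a gap of 265 bp. Inside the annotated span of Nipbl, 200 bp from an end of the predicted gene LOC102634078, lay a further member in 3 pieces with gaps of 105 bp each and 89.2% covered. Its highest summit at 6 h was 821 bp from that of 0 h, and at 72 h 0 bp from it.

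Housekeeping genes had the largest share of the lists, and mature neutrophil and granule genes had none. Of 23 housekeeping genes with an end region 12 had a member there (52.2%, against 18.9% of all genes), and 12 of 20 with an end region of 500 bp or more, against 33.1%. Hspa8, a chaperone, had folds of 171 at 0 h and 203 at 6 h, and at 72 h pieces of 202 and 5.46. Ppia, a prolyl isomerase, had 115 and 136, then pieces of 153 and 73.4 around a gap of 230 bp inside the gene. Eno1, the glycolytic enolase, was in 4 pieces, with folds of 142, 8.59, 4.68 and 4.68. Eef1a1, a translation elongation factor, kept 94.9% of its bases. Of 21 mature neutrophil genes with an end region 0 had a member, and of 16 granule genes 0, and of 13 genes of other lineages 0. Their end regions were short, with medians of 337, 278.5 and 181 bp, and those of 500 bp or more numbered 4, 4 and 2. Among 12 monocyte and macrophage genes Mertk, a receptor for dying cells, had a member, of fold 9.07 at 0 h and 16.6 at 6 h with pieces of 4.68 and 6.25.

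Transcription factors of myeloid cells were split at 9 of 23 genes with an end region (39.1%, against 18.9% of all genes). With an end region of 500 bp or more it was 8 of 17 (47.1%), against 33.1%, and their end regions had the longest median of the lists, 1251 bp. Cebpa, which directs granulocyte fate, had folds of 129 and 141 and then pieces of 176 and 5.46 on either side of a gap from 465 to 555 bp into the gene. Stat3, a cytokine-activated factor, had folds of 184 and 204, then 254 and 21.1. Klf6 had 141 and 176, then 201 and 18.7, and its gap of 136 bp lay upstream of the start. Cebpb, Cebpd, Cebpe, Fli1 and Junb were the others, beside Jun. Among 21 NF-kB and inflammatory genes 5 had a member (23.8%, against 18.9% of all genes). With an end region of 500 bp or more it was 5 of 17 (29.4%), against 33.1%. Irf1, an interferon regulatory factor, had folds of 105 and 124, then 149 and 32.0, and Tnfaip3, the inhibitor A20, had 48.4 and 67.8, then 96.0 and 21.1. Icam1, an adhesion receptor, had 31.7 and 30.1, then 18 and 11.7, and a gap of 347 bp. Of 22 nuclear envelope and lamina genes 4 had a member (18.2%, against 18.9% of all genes), and 4 of 20 with an end region of 500 bp or more, against 33.1%. Of the 4, Tor1aip1 and Tor1aip2 shared 1 region. Syne1, a nesprin that links the nucleus to the cytoskeleton, was split into pieces of equal fold, 43.7 each.

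Members at progenitor genes had a lower median covered share than those at the cohesin, housekeeping and myeloid factor genes, with ranges that overlap. Of 17 with an end region 5 had a member (29.4%, against 18.9% of all genes, and 4 of 7 with 500 bp or more), namely Myc, Myb, Cdk6, Erg and Tal1. Their median covered share was 61.1% (range 38.4 to 66.7), against 77.4% over all members. It was 86.6% (65.7 to 92.1) at cohesin genes, 81.1% (66.3 to 94.9) at housekeeping genes and 81.0% (60.9 to 94.7) at myeloid transcription factor genes. These values leave out a lower member within 1 kb of an end at Tuba1b (34.1% covered), Cdk6 (51.0%) and Cebpe (66.2%). That of the housekeeping gene Tuba1b lay below every progenitor value. At Myc, the proliferation factor, a region of 1777 bp at chr15:61984706-61986482 had folds of 74.8 at 0 h and 71.6 at 6 h. At 72 h it was in pieces of 317 and 365 bp, each of fold 18, with the outer end of the annotated gene span, 61985341, in the gap between them. At Myb, a factor of immature blood cells, a region of 925 bp had folds of 34.0 and 31.6, then 11.7 and 5.46. Cdk6, a cell cycle kinase, had 28.0 and 28.6, then 13.3 and 10.1. Erg, an ETS factor, had 15.9 and 19.6, then 10.9 and 3.90. At Tal1, a basic helix-loop-helix factor, the order was another: the folds were 15.9 and 15.1, then 28.1 and 5.46. These regions were shorter than those of the other 3 lists, with a median of 645 bp at 0 h, and all members of 500 bp to under 1000 bp had a median covered share of 78.8%.

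**Figure D5:**
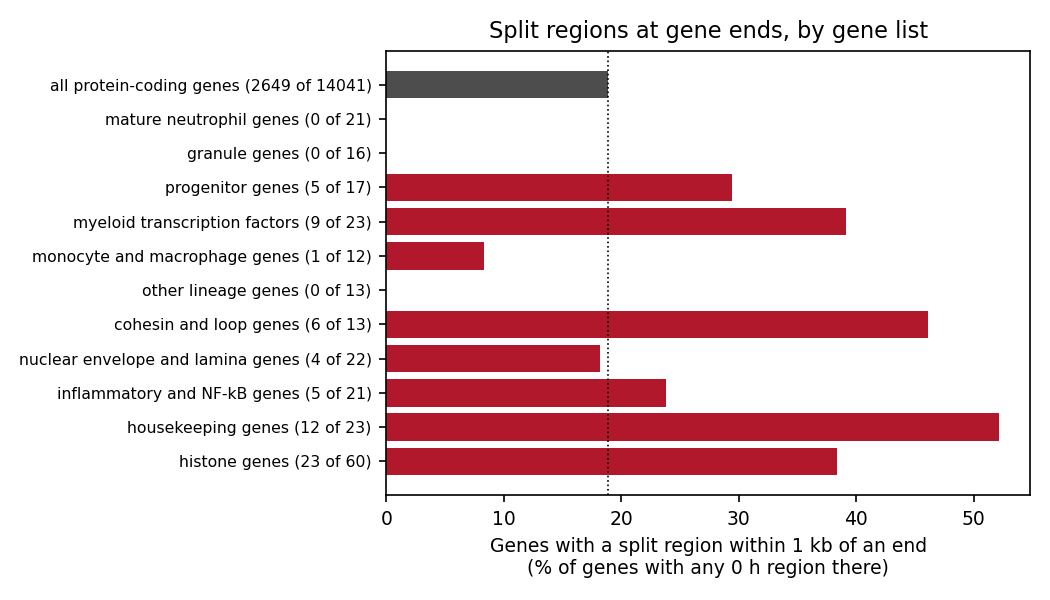
Percent of genes with a member within 1 kb of an end (x axis), among genes of each list with any 0 h region there (counts beside each name); the grey bar and dotted line are all protein-coding genes, at 18.9%. Housekeeping genes stand at 52.2%, and mature neutrophil, granule and other lineage genes at 0.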

How the data were processed

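ATAC-seq peaks of 3 libraries (0 h without dTAG, 6 h and 72 h with dTAG) were used, 1 list per library. The submitters' processing notes name BWA 0.7.17, MACS2 2.2.7, bedtools 2.30.0 and the build mm10, with no options. Fragment selection, duplicates and read shift are not stated in those notes. The deposited lists give each peak's fold (a ratio of summit to background), −log10 p-value and −log10 q-value. These are the authors' own values and served only within a list. Read totals were not used. The grid of the folds gives each library's background fragments if the caller adds 1 to summit and background, and 100% of folds lay on it within 0.01 of a step. The lowest summit was 3 fragments in each list.

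Regions were matched on chromosomes 1 to 19 and X by at least 1 bp, with Python 3.11.15, numpy 2.4.6, pandas 2.3.3 and scipy 1.17.1, and the overlap code was tested on simulated data. Shares have exact Clopper-Pearson 95% intervals for counting error only. With 1 library per group no test was run. Gene spans and start sites came from RefSeq GRCm38.p6: 21631 protein-coding genes, 17274 of them with a start site in the promoter table. Named members were the 10 with most pieces, the 10 with the longest gap, the 10 of highest 0 h fold at a gene end, and up to 4 genes per list; 1 of them is not reported here. A gene list counts a gene when a member lies within 1 kb of either end of its span. The members and lists were chosen with earlier results of these data known. Of the listed symbols only Azu1 was not matched. Snord118, Rpl41, Tarbp2, Nipbl and the genes named only as having a member were outside these rules. Those just inside or outside the overlap rule were taken at the smallest distances. All of these were chosen after their values were seen.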

Additional observations from a re-analysis of the deposited data

How the results depend on the processing

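Members outnumbered the regions split at 6 h and those joined at 72 h under every alternative tried, by 2.08 to 3.25 and 1.98 to 3.52 times. Counts of members were 3506 as reported, 3382 with 25 bp shared, 3173 with 50% of the shorter region shared, 2934 with a −log10 q of at least 5, 3599 in equal-sized lists of 145021 regions and 2528 with regions closer than 150 bp joined. Joining below 50 bp changed nothing, since no gap is that short. With a −log10 q of at least 10 the counts were 2174 members, 669 split at 6 h, 618 joined at 72 h and 765 joined at 6 h (1994 as reported). Joining below 150 bp gave 1096 split at 6 h, 1011 joined at 72 h and 1177 joined at 6 h, and a −log10 q of at least 5 gave 1146 joined at 72 h. These settings leave fewer regions or gaps to count. The share at gene ends was 58.8% within 500 bp and 68.4% with a −log10 q of at least 5. No paired analysis was possible because each group held 1 library, and none could be left out. The lowest listed summit was 3 fragments in each list, and the lower depth at 72 h limits what a gap there can show.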

Other observations

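Histone genes were looked at after their place among the longest gaps was seen, so their values are a description. Of 60 replication-dependent histone genes with a 0 h region within 1 kb of an end, 23 had a member there (38.3%), against 18.9% of all genes, and 23 of 48 with an end region of 500 bp or more, against 33.1%. Neighbouring histone genes lie close together and share regions, so these 23 genes rest on 14 members. Their pieces covered a median of 55.6% of the 0 h bases (range 21.1 to 82.9), with a median longest gap of 226.5 bp. Among all members of 1000 bp to under 1500 bp at 0 h the medians were 82.9% and 105 bp. At H1f5, a linker histone, a region of 1624 bp with folds of 36.3 at 0 h and 41.4 at 6 h was left as pieces of fold 35.1 and 3.90, and the start site was in neither. The higher piece had its summit 1152 bp downstream of the start, past the gene. At H1f3 the folds were 67.3 and 91.9, then 37.5 for the highest piece, with a gap of 544 bp. At H2ac11 they were 25.7 and 26.4, then 3.90 and 3.12, the second being the lowest fold of the 72 h list. Near H2bc6 a gap of 688 bp divided a region of fold 74.8 at 0 h and 102 at 6 h into pieces of fold 67.1 and 17.2. By contrast, a region at H1f4 kept 82.9% of its bases, with folds of 154, 157 and 112. Near-identical histone gene copies can share reads, and how the authors treated such reads is not given in the sources used here, so these values are uncertain.

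Some genes held several members in their span with 10 kb on each side, named after their counts were seen. Ripor1 had 6 of 18 listed regions, and Plec and Rnaseh2a had 5 each, of 31 and 21. Over all 18627 genes with a 0 h region in that window, 23.7% held at least 1 member. By chromosome, members made up from 1.59% of 0 h regions on chromosome 1 to 2.44% on chromosome 17.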
